A study of Bos taurus with 47 samples.

Results

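Frontal cortex was represented by 4 of the 47 RNA-seq libraries of Holstein cattle, 1 from each of 4 animals, and was set against the 43 libraries of 14 other tissue labels. The members were all libraries whose tissue label reads frontal cortex. The cortex libraries came from 2 males, called male A and male B here, and from 2 females, a lactating cow and a dry cow, named for the gland each gave to the study. The same 4 animals gave spleen, rumen, muscle, lung, liver, kidney, ileum, heart and adipose tissue. Ovary and uterus came from the 2 cows, the lactating gland from the lactating cow, the dry gland from the dry cow, and lymphocytes from a further male. No treatment or genotype is given, ages are not given in the sources used here, and the RNA integrity number in the labels is 9.0.

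The frontal cortex is the front part of the cerebral cortex, a layered sheet of excitatory and inhibitory neurons that are supported by astrocytes, oligodendrocytes, microglia and blood vessels. Neurons signal to each other at synapses, and oligodendrocytes wrap their axons in myelin. Brain tissue is known for expressing many genes that other organs use little or not at all, and for the barrier that keeps blood cells and most blood proteins out of it. The study compared transcriptomes across tissues.

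Transcript levels are given as FPKM, the fragments counted for a transcript divided by its length in kilobases and by the size of the library, for 24616 Ensembl identifiers. The table does not pair identifiers with gene names, and none was matched to a name here. The tissue label could therefore not be checked against neuronal or glial markers, and no role is given for any identifier. The identifiers with the 2 largest differences without overlap in each direction are named, and the others are described by their rank.

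Depth in fragments is unknown. A rough depth relative to male A's cortex, the commonest ratio of low FPKM values, was 1.16 in male B, 0.959 in the lactating cow and 1.07 in the dry cow, each shared by 15 to 19 of 555 to 636 genes. Cortex libraries also held low amounts of genes that were restricted to other tissues, here those with at least 2000 FPKM in 1 label and at least 100 times every other label. Relative to their level in the tissue of origin, 18 liver genes were at a median of 291 ppm (parts in 1000000) in the cortex of male A, 74.1 ppm in male B, 0 in the lactating cow and 162 ppm in the dry cow. The values for 10 rumen genes were 116, 170, 0 and 332 ppm, and for 9 muscle genes 221, 183, 46.3 and 241 ppm, in the same order of animals. The lactating cow's cortex was 1 of 10 libraries, 9 of them from that cow, that were under 50 ppm for liver and rumen genes outside those tissues, so the 4 cortex libraries were not alike in this respect.

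Frontal cortex spread its transcripts over many genes. The genes that together held 50% of the summed FPKM numbered 624 in male A, 553 in male B, 568 in the lactating cow and 595 in the dry cow, the most of the 15 labels by the mean. The 100 most abundant genes held 22.9%, 25.5%, 23.8% and 22.8% of the sum, the least of the 15 labels, against 84.7% in the lactating gland and 25.6% in kidney, the next lowest. At least 1 FPKM was reached by 13022, 12925, 12946 and 13009 genes. At least 100 FPKM was reached by 1104, 1047, 1132 and 1118 genes, and at least 1000 FPKM by 40, 42, 53 and 46 genes. By the mean of each label, cortex ranked 2 of 15 for genes over 100 FPKM and 14 of 15 for genes over 1000 FPKM. The summed FPKM ran between 576130 and 602121, the lowest of the labels by the mean (586251 ± 11374, SD, n = 4).

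A single gene led every cortex library. ENSBTAG00000022890 was at 13994.5 FPKM in male A, 27129.9 in male B, 12047.6 in the lactating cow and 11038.9 in the dry cow. It alone held 2.43%, 4.67%, 2.0% and 1.88% of the summed FPKM. Male B was thus far above the other animals, which lay close together. The 10 most abundant genes of each library held 7.91%, 10.1%, 7.41% and 7.14% of its sum. Without that gene they held 5.81%, 5.75%, 5.76% and 5.56%, so the difference between male B and the rest lay in this gene.

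The next genes were steadier from animal to animal. The gene of abundance rank 2 was at 6164 FPKM in male A, 6090 in male B, 6094 in the lactating cow and 6550 in the dry cow, while the means of other labels ran between 1.24 (liver) and 93.6 FPKM (dry gland). The gene of rank 3 was at 5912, 5628, 5013 and 4563 FPKM, against other labels' means between 1.93 and 2151 FPKM. The gene of rank 8 was at 2355, 2419, 2578 and 2245 FPKM, against 0.616 to 278 FPKM. Cortex was above every other label for these genes, by the least for rank 3.

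Other abundant cortex genes were abundant elsewhere too. The gene of rank 4 was at 4365, 4721, 5131 and 4377 FPKM in cortex, and other labels' means ran between 425.8 and 7794 FPKM (rumen). The gene of rank 5 was at 3577, 3674, 3624 and 3325 FPKM in cortex, exceeded by liver with a mean of 8111 FPKM. The gene of rank 10, at 1886, 2062, 2274 and 1715 FPKM, was lower in cortex than in 13 of the 14 other labels, which reached 7449 FPKM in uterus. Of the 50 most abundant cortex genes, 22 were among the 50 most abundant of no other label and 2 were among the 50 of all 14 others. Among the 500 most abundant, 169 were in no other label's 500 and 117 were in all of them.

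Each gene was then tested for a difference between the cortex mean and the unweighted mean of the other 14 labels on the log2(FPKM + 1) scale, which understates the change of genes with low values. The fit used limma over all 47 libraries and 16634 genes, and a call required a Benjamini-Hochberg adjusted p under 0.05 and a difference of at least 2 (4-fold). Each standard error (SE) and p rests on a spread per gene that all labels share, not on the cortex libraries alone. In cortex, 1904 genes (11.4%) were higher and 512 genes (3.08%) were lower. In whole tissue, fewer cells of a type and less RNA per cell cannot be told apart. Quantile normalization gave 1508 higher and 882 lower genes, so the higher share of all calls was 78.8% as deposited and 63.1% after it.

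**Figure D1:**
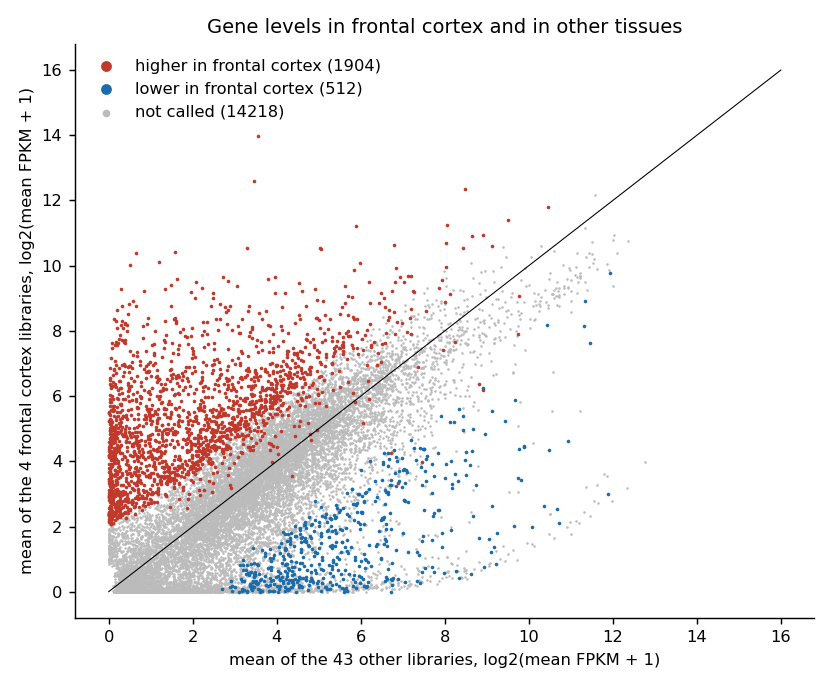
Mean of the 4 frontal cortex libraries (vertical axis) against the mean of the 43 other libraries (horizontal axis), both as log2(mean FPKM + 1), for the 16634 genes tested; the diagonal marks equal levels. The 1904 genes called higher (red) reach farther from the diagonal than the 512 called lower (blue), and some called genes lie near it because the test used the mean of the 14 labels on the log2 scale and not this mean over libraries.

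The median difference of the genes called higher, which had to reach 2, was 3.25 (quartiles 2.47 and 4.51). Over all genes tested the median absolute difference was 0.69. Among the higher genes, differences of at least 4 were found for 639, of at least 6 for 165 and of at least 8 for 22. The higher genes' median cortex level was 36.0 FPKM, with 283 genes between 1 and 10 FPKM, 1199 between 10 and 100, and 422 at 100 FPKM or more. Together they made up 36.5% of the summed FPKM in the cortex of male A, 37.6% in male B, 34.3% in the lactating cow and 34.6% in the dry cow, against label means between 0.627% (lactating gland) and 5.14% (kidney) elsewhere. The call used these same values, so a larger share in cortex is not independent of it.

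For 1430 of the genes called higher (8.60% of those tested) all 4 cortex libraries were above all 43 others. By label means, cortex was at least 10 times every other label for 539 of the higher genes and at least 100 times for 131. All other labels were under 1 FPKM for 316 higher genes, of which 182 had at least 10 FPKM in cortex and 21 at least 100. At the other end, 376 of the 1904 higher genes had at least 1 FPKM in all 14 other labels. This was a smaller share than among all genes tested (7850 of 16634, 47.2%), and breadth is not independent of the call. Part of the group thus consisted of widely expressed genes that were more abundant in cortex. Over all identifiers, 473 genes reached a mean of 1 FPKM in cortex alone, more than for any other label. Lymphocytes followed with 160 and ileum with 137.

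ENSBTAG00000022890, the most abundant gene, also had the largest difference. Its cortex values averaged 16053 ± 7486 FPKM (SD, n = 4), and the 43 other libraries had a lowest value of 1.08, a median of 7.32 and a highest of 32.7 FPKM. Muscle (25.4 ± 4.92 FPKM, SD, n = 4), the lymphocyte library (24.5 FPKM, n = 1) and adipose tissue (20.1 ± 11.7 FPKM, SD, n = 4) were the highest other labels. Muscle and adipose tissue did not differ beyond their spread, and the lymphocyte library has no spread of its own. Heart was the lowest at 1.92 ± 0.623 FPKM (SD, n = 4). The difference was 10.66 ± 0.25 (SE), with a limma adjusted p of 9.23e-31. It had the same direction in 4 of 4 cortex libraries, which the choice of genes without overlap required. Within each animal, cortex was compared with the mean of the other tissues that all 4 animals gave. This difference was 10.48 in male A, 11.88 in male B, 10.25 in the lactating cow and 10.04 in the dry cow.

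ENSBTAG00000013534 was at 983 FPKM in male A, 1989 in male B, 1268 in the lactating cow and 1113 in the dry cow. The other libraries had a lowest value of 0.0365, a median of 0.375 and a highest of 3.1 FPKM. Male B was again the highest cortex library, and cortex and the other libraries did not overlap. The highest other labels were adipose tissue at 1.45 ± 1.19 FPKM (SD, n = 4) and uterus at 1.37 ± 0.168 FPKM (SD, n = 2), which did not differ beyond their spread. The difference was 9.77 ± 0.17 (SE, limma adjusted p = 1.35e-34), and within animals it was 9.51, 10.52, 9.66 and 9.43 in the same order. By the choice of genes without overlap, it was higher in 4 of 4 cortex libraries. ENSBTAG00000013534 and ENSBTAG00000022890 were low elsewhere, so their SE from the shared spread can be too small for cortex, where male B stood apart.

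The 20 largest differences among higher genes without overlap ran between 8.26 and 10.66, with cortex means between 326.4 and 16053 FPKM. In no other library did any of the 20 exceed 93.6 FPKM. Ileum was the next highest label for 7 of the 20, but for only 8.46% of all higher genes. It was the highest outside cortex for 8.64% of all genes tested. For 17 of the 20 the highest cortex library was under 2 times the lowest. The third gene by difference was among the less even ones, at 1205 and 756 FPKM in males A and B and 1430 and 736 FPKM in the lactating and the dry cow.

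**Figure D2:**
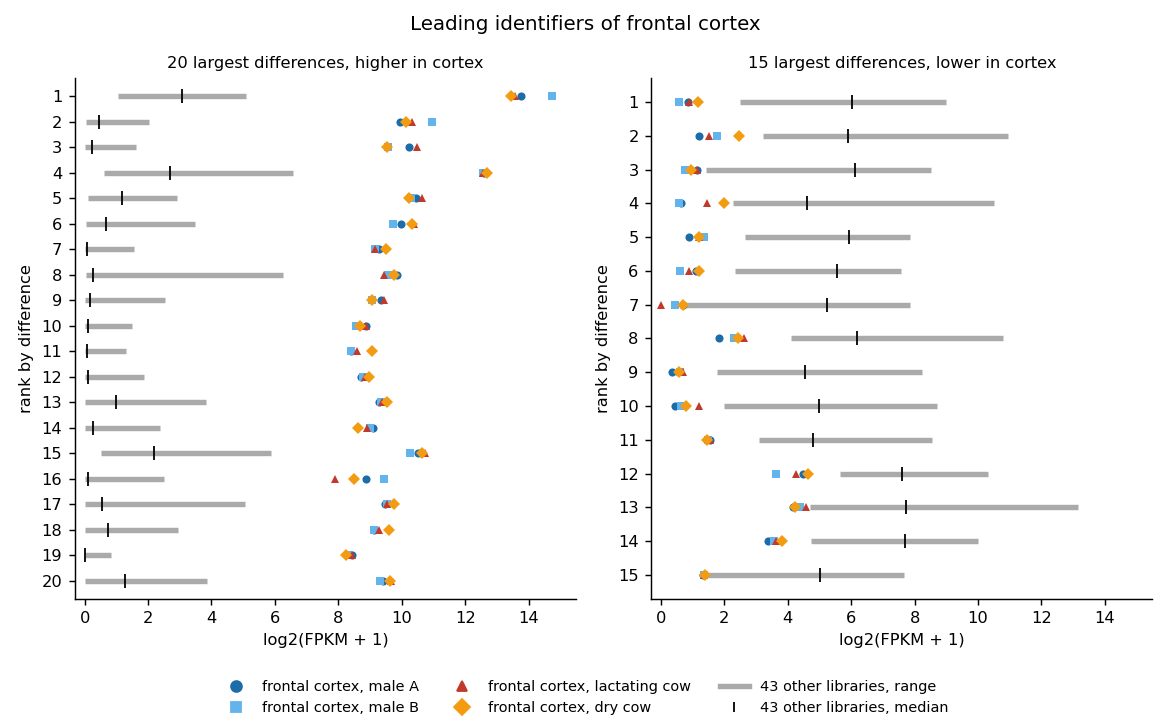
The 20 largest higher (left) and 15 largest lower (right) differences among called genes without overlap, each row 1 gene ordered by its difference; the horizontal axis is log2(FPKM + 1), coloured points are the 4 cortex libraries, and the grey bar and black tick are the range and median of the 43 other libraries. Cortex points of higher genes cluster tightly and far to the right, whereas lower genes sit closer to the other libraries and the grey bars reach almost to the cortex points in rows 7 and 15.

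The other tissues that came second to cortex were not evenly spread. The label with the highest level among the others was kidney for 239 of the 1904 higher genes (12.6%), uterus for 224 (11.8%) and ovary for 218 (11.5%). Over all genes tested these labels were the highest outside cortex for 11.1%, 7.20% and 7.11%. The lymphocyte library was the next highest for 134 higher genes (7.04%), against 21.5% of all genes tested, and liver for 55 (2.89%, against 4.18%). For 294 higher genes another label exceeded cortex, led by kidney with 46 genes (15.6%), muscle with 34 (11.6%), ovary with 29 (9.86%) and heart with 25 (8.50%). Over the 13724 tested genes for which another label exceeded cortex, these shares were 10.6%, 3.75%, 6.09% and 6.27%. Genes shared by cortex and 1 other label, both at least 4 times all remaining labels, were most numerous with kidney (37), ovary (27) and uterus (27), and least with the lactating gland (3). These counts describe label means and were not tested.

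The number of lower genes depended on the pseudocount: it was 512 with 1 FPKM and 1240 with 0.1 FPKM. Cortex levels near the pseudocount of 1 FPKM limit the size of a difference. At that pseudocount their median difference had a size of 2.49 (quartiles 2.22 and 2.88), 22 genes reached 4, none reached 6, and the largest was 5.40. Their median cortex level was 1.30 FPKM. In cortex 42 were under 0.1 FPKM, 213 were between 1 and 10 FPKM, and 64 were still at 10 FPKM or more. They made up 0.708%, 0.687%, 0.730% and 0.750% of the summed FPKM of the cortex libraries, against label means between 2.21% (lactating gland) and 18.9% (spleen) elsewhere. The call used these same values, so a smaller share in cortex is not independent of it.

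Lower calls rest on the mean over 14 labels, so the breadth of expression is not independent of the call and was not tested. Of the 512, 464 (90.6%) had at least 1 FPKM in at least 10 other labels, against 66.3% of all genes tested. All 14 other labels were at that level for 213 (41.6%), against 47.2% of all genes tested, and the narrowest gene was at that level in 4. Only 19 of the 213 had a cortex mean under 1 FPKM. The counterpart of the 473 genes found in cortex alone were 25 genes, over all identifiers, that reached 1 FPKM in every label but cortex. This count ranked 6 of 15 labels: it was 509 for the lymphocyte library, 357 for the lactating gland and 317 for muscle, and 11 for rumen and 0 for ileum.

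For 82 of the genes called lower (0.493% of those tested) all 4 cortex libraries were below all 43 others. Leaving libraries out can only raise this number: without the lymphocyte library it was 129, and without the lymphocyte and muscle libraries it was 211. Other libraries were not left out. Cortex was the lowest label, with no tie, for 198 lower genes, for 288 when lymphocytes were set aside and for 370 when muscle was set aside too. Among the other labels, muscle was the lowest for 197 of the 512 genes (38.5%, against 21.9% of all genes tested) and lymphocytes for 169 (33.0%, against 14.2%). Their median level was 1.30 FPKM in cortex. Among the other labels it was lowest in muscle (3.13 FPKM), the lactating gland (6.39 FPKM) and heart (8.64 FPKM), lay at 12.7 to 12.8 FPKM in uterus, kidney and lymphocytes, and was highest in ileum (37.9 FPKM) and lung (42.1 FPKM).

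The label at which lower genes were highest was counted as well, with no test. Spleen was the highest for 71 (13.9%, against 6.23% of all genes tested), adipose tissue for 47 (9.18%, against 4.39%) and liver for 38 (7.42%, against 4.18%). Lymphocytes were the highest for 91 (17.8%, against 21.5%) and kidney for 31 (6.05%, against 11.1%).

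ENSBTAG00000011182 had the largest difference among lower genes without overlap. It was at 0.826 FPKM in the cortex of male A, 0.491 in male B, 0.832 in the lactating cow and 1.24 in the dry cow, and the other libraries had a lowest value of 4.66, a median of 64.1 and a highest of 511 FPKM. All cortex libraries were below all others, of which the lactating gland was the lowest. The label means were 450.3 ± 68.5 FPKM in heart (SD, n = 4), then 155.4 ± 17.9 in lung and 109.9 ± 7.88 in rumen (SD, n = 4 each), and 20.7 ± 2.86 FPKM in kidney (SD, n = 4). The difference was −4.94 ± 0.12 (SE, limma adjusted p = 1.23e-29), with 4 of 4 cortex libraries lower by the choice of genes without overlap. Within animals it was −5.49, −5.63, −5.52 and −5.27 for male A, male B, the lactating cow and the dry cow.

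ENSBTAG00000045492 was at 1.32 FPKM in male A, 2.38 in male B, 1.85 in the lactating cow and 4.49 in the dry cow, against a lowest value of 8.22, a median of 58.1 and a highest of 1982 FPKM in the other libraries. The dry cow's cortex was the highest of the 4 and still below every other library. Liver was the highest label at 1589 ± 350 FPKM (SD, n = 4), followed by the lactating gland at 471 FPKM (n = 1), and muscle was the lowest at 12.02 ± 3.25 FPKM (SD, n = 4). The difference was −4.70 ± 0.32 (SE, limma adjusted p = 6.59e-16), with 4 of 4 cortex libraries lower by the choice of genes without overlap. Within animals it was −5.01, −4.13, −5.13 and −4.09 in the same order.

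The 15 largest lower differences without overlap ran between −4.94 and −3.65, with cortex means between 0.398 and 19.3 FPKM. In 9 of the 15, the highest cortex library was at least 2 times the lowest. When overlap was allowed, a gene with a larger difference but higher cortex values led the list at −5.40. It was at 1.12 FPKM in male A, 1.16 in male B, 2.92 in the lactating cow and 14.1 in the dry cow, and its spleen mean was 14653 FPKM. The genes ranked 3, 10 and 15 in that list were also led by spleen, with means of 10462, 9469 and 5047 FPKM, and each was highest in the dry cow's cortex at 13.5, 5.91 and 3.43 FPKM.

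Taken label by label, with no test, the number of genes at least 4-fold apart from cortex varied widely. It was largest against the lactating gland (n = 1), where 4297 genes (25.8%) were higher in cortex and 374 (2.25%) lower. Against muscle, 3418 genes (20.5%) were higher and 504 (3.03%) lower, and against liver 3075 (18.5%) were higher and 1114 (6.70%) lower. The fewest higher genes were found against lung, with 1668 (10%) higher and 1766 (10.6%) lower. Ileum and lung were the labels with more lower than higher genes, 1998 lower (12%) and 1733 higher (10.4%) for ileum. Higher and lower genes numbered 2848 (17.1%) and 1731 (10.4%) against the lymphocyte library, 2493 (15%) and 806 (4.85%) against heart, and 2378 (14.3%) and 1124 (6.76%) against rumen. They numbered 2008 (12.1%) and 1570 (9.44%) against spleen, 1836 (11%) and 1286 (7.73%) against kidney, and 1811 (10.9%) and 1036 (6.23%) against adipose tissue. Against ovary they were 1733 (10.4%) and 922 (5.54%), against uterus 1728 (10.4%) and 977 (5.87%), and against the dry gland 1671 (10%) and 1535 (9.23%). The median difference over all genes was 1.07 against the lactating gland, 0.76 against muscle, 0.60 against liver, 0.47 against heart and −0.14 against ileum, so these counts include a shift of the median gene. Across genes tested, which are not independent replicates, the Spearman correlation of label means with cortex was highest for uterus (0.718) and ovary (0.716) and lowest for lymphocytes (0.544) and liver (0.558).

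**Figure D3:**
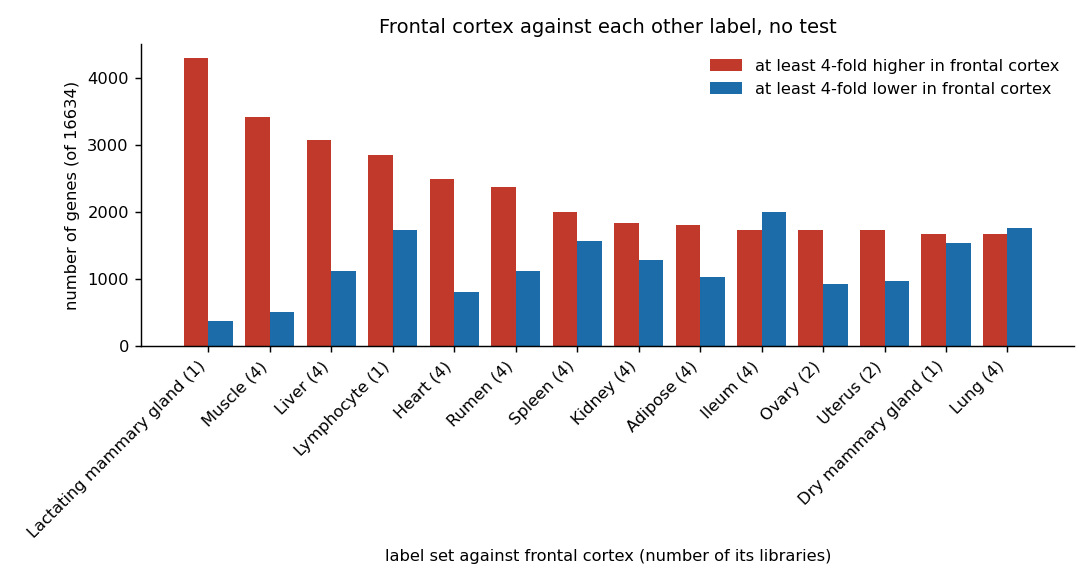
Number of genes, of 16634 tested, whose cortex mean was at least 4-fold higher (red) or lower (blue) than the mean of each other label on the log2(FPKM + 1) scale, with the number of libraries of that label in parentheses; no test was made. Higher genes fall from 4297 against the lactating gland to 1668 against lung, and the blue bar exceeds the red one for ileum and lung.

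The spread among the cortex libraries was the lowest of the 10 tissues with 4 libraries. Among genes with a label mean of at least 1 FPKM, the median SD over 4 animals on the log2(FPKM + 1) scale was 0.17 in cortex (quartiles 0.12 and 0.25, 13008 genes), 0.19 in spleen and kidney, 0.20 in muscle and rumen, and up to 0.33 in ileum. The highest and lowest cortex library were at least 2-fold apart on that scale for 650 genes (5.0%), against 7.12% in muscle, the next lowest, and 30.7% in ileum. The 650 became 1237 with a pseudocount of 0.1 FPKM and 401 to 476 when 1 cortex library was left out. Spearman correlations between pairs of cortex libraries over genes ran between 0.977 and 0.980. No test of the spread was made, since each tissue had 4 libraries from the same 4 animals.

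Spread in cortex varied with abundance and with the call. The median SD was 0.19 for the 1904 higher genes, 0.26 for the 277 lower genes with a cortex mean of at least 1 FPKM and 0.17 for genes not called. A range of at least 2-fold was found for 120 higher genes (6.30%), 47 of the lower genes (17.0%) and 483 genes not called (4.46%). At 1 to 10 FPKM in cortex these shares were 10.6% of 283 higher, 18.3% of 213 lower and 6.93% of 5213 genes not called. At 10 to 100 FPKM they were 5.92% of 1199, 13.6% of 59 and 2.08% of 4941 genes. The 120 higher genes were highest in male A for 52, in male B for 34, in the lactating cow for 17 and in the dry cow for 17, and lowest in the lactating cow for 51 and in the dry cow for 43. Over all 650 genes with such a range, male A was the highest for 37.5%, male B for 16.8%, the lactating cow for 22.9% and the dry cow for 22.8%, and the lactating cow was the lowest for 30.9% and the dry cow for 24.6%.

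None of the 10 widest genes with a cortex mean of at least 10 FPKM was called higher in cortex, and the gene of rank 6 was called lower. Of all 7299 genes at that level, those called higher were 1199 at 10 to 100 FPKM and 422 at 100 FPKM or more. The widest gene was at 0 FPKM in male A, 17.5 in male B, 0 in the lactating cow and 27.6 in the dry cow. The second was at 0.0133, 16.2, 0.0260 and 27.1 FPKM. Both belonged to 7 genes with at least 20000 FPKM in the lactating gland and at least 100 times any other label apart from the dry gland and ovary. Relative to the lactating gland the 7 were at a median of 108 ppm in the cortex of male B and 172 ppm in that of the dry cow, and at 0 in the other two. Their values summed to 76.5 FPKM in male B and 120.5 FPKM in the dry cow. In male A they summed to 0.0133 FPKM and in the lactating cow, which gave the lactating gland, to 0.0260 FPKM. Such sums were not confined to cortex. In the dry cow they were 101.2 FPKM in adipose tissue, 97.9 in kidney and 118.9 in rumen, but 0 in liver. Male A's kidney was at 133.8 FPKM. The lactating cow's muscle, rumen and liver were at 147.7, 182.2 and 344.4 FPKM. The remaining tissues of male A were near 0, as were the lactating cow's apart from her gland. Male B's other tissues reached at most 0.22 FPKM, in kidney. Where these values come from was not tested.

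Other wide genes were led by other tissues. The third was at 30.3 FPKM in male A, 6.06 in male B, 0.185 in the lactating cow and 24.8 in the dry cow, with a rumen mean of 195.7 FPKM. The fourth was at 58.2, 2.95, 62.1 and 22.0 FPKM (liver mean 350.5 FPKM), and the fifth at 229.9, 115.7, 258.9 and 18.1 FPKM (1216 FPKM in the lymphocyte library). The eighth was at 254.8, 80.0, 134.1 and 675.3 FPKM and the ninth at 350.1, 128.4, 210.3 and 1004 FPKM, both highest in the dry cow and led elsewhere by spleen, at 358.5 and 724.2 FPKM. No single animal was apart in all of these genes.

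**Figure D4:**
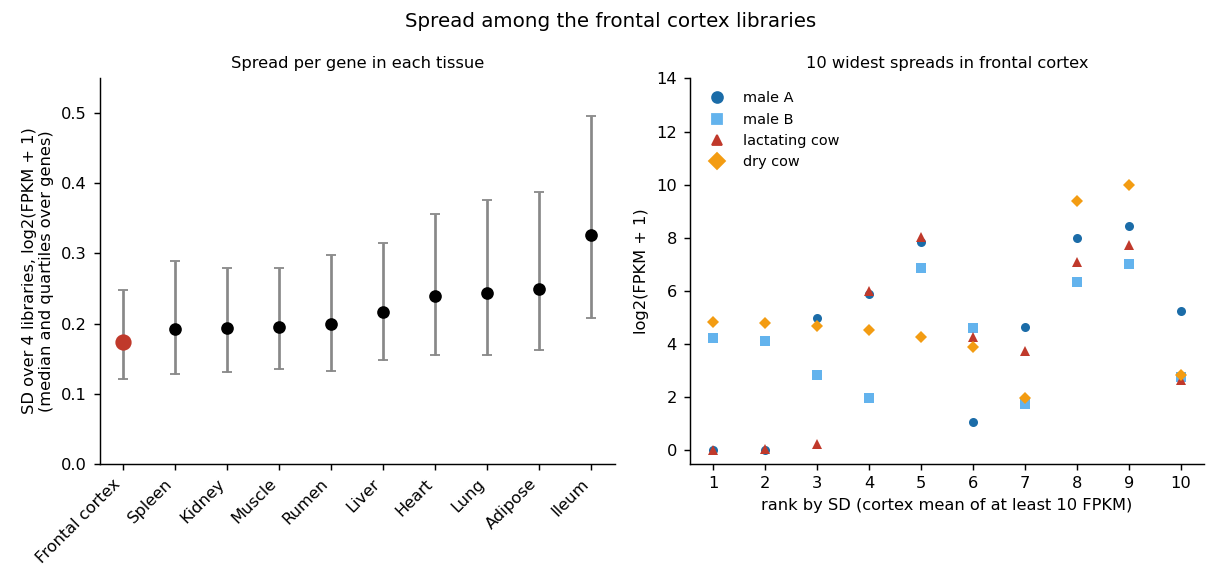
Left, the SD over 4 libraries per gene on the log2(FPKM + 1) scale in each tissue, as the median (point) and quartiles (bars) over genes with a mean of at least 1 FPKM; cortex (red) is lowest at 0.17 and ileum highest at 0.33. Right, the log2(FPKM + 1) values of the 10 widest cortex genes by animal; genes 1 and 2 are near 0 in male A and the lactating cow only.

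Lower genes were most often highest in the dry cow. That cow's cortex was the highest of the 4 for 228 of the 512 lower genes (44.5%), against 30.1% of 15125 tested genes with at least 0.1 FPKM in cortex, and male B's was the highest for 45 (8.79%), against 16.5%. The 512 include 42 genes under 0.1 FPKM in cortex, which the 15125 leave out. Among lower genes led by lymphocytes the dry cow was the highest for 54 of 91 (59.3%), against 32.1% of tested genes led by lymphocytes. Among those led by spleen it was 38 of 71 (53.5%, against 31.5%), and among those led by adipose tissue 23 of 47 (48.9%, against 28.1%). Lower genes at 0 numbered 50 in male A, 51 in male B, 51 in the lactating cow and 16 in the dry cow. Over all 16634 genes tested, those at 0 numbered 1281, 1279, 1393 and 1065, again fewest in the dry cow. Beside these counts, the liver, rumen and muscle genes given above were at 162, 332 and 241 ppm in the dry cow. They were at 291, 116 and 221 ppm in male A, whose cortex was the highest for 119 lower genes. In male B, the highest for 45, they were at 74.1, 170 and 183 ppm. In the lactating cow, the highest for 120, they were at 0, 0 and 46.3 ppm. The 119 include 7 genes at 0 in all 4 cortex libraries, where no library was the highest. The part of the liver, rumen and muscle genes in the counts was not tested. Some exact zeros may be estimates that failed rather than absent transcripts.

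Genes restricted to cortex were also followed into the other libraries. There were 48 genes with at least 100 FPKM in cortex and at least 100 times every other label, a rule that used these same values. They summed to 30330 FPKM in male A, 43817 in male B, 29073 in the lactating cow and 27225 in the dry cow. Without ENSBTAG00000022890 the sums were 16335, 16687, 17025 and 16186 FPKM, so the sum of the other 47 genes was nearly even over the animals. Single genes were less so: the highest library was a median of 1.35 times the lowest (range 1.05 to 2.92), 4 of the 47 reached 2-fold, and the dry cow was the highest for 21, male B for 11, male A for 9 and the lactating cow for 6. Relative to the cortex mean, the median of the 48 genes in the 43 other libraries ran from 0 to 2697 ppm, with a median of 283 ppm. Ileum was high in all 4 animals, between 1191 and 2257 ppm. Single libraries stood apart in adipose tissue (2697 ppm in the dry cow), muscle (1003 ppm in the lactating cow) and rumen (981 ppm in male A), while adipose tissue, muscle and liver of male B were at 0. In the 9 other libraries under 50 ppm for liver and rumen genes, cortex genes were still at 109.8 to 1191 ppm.

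**Figure D5:**
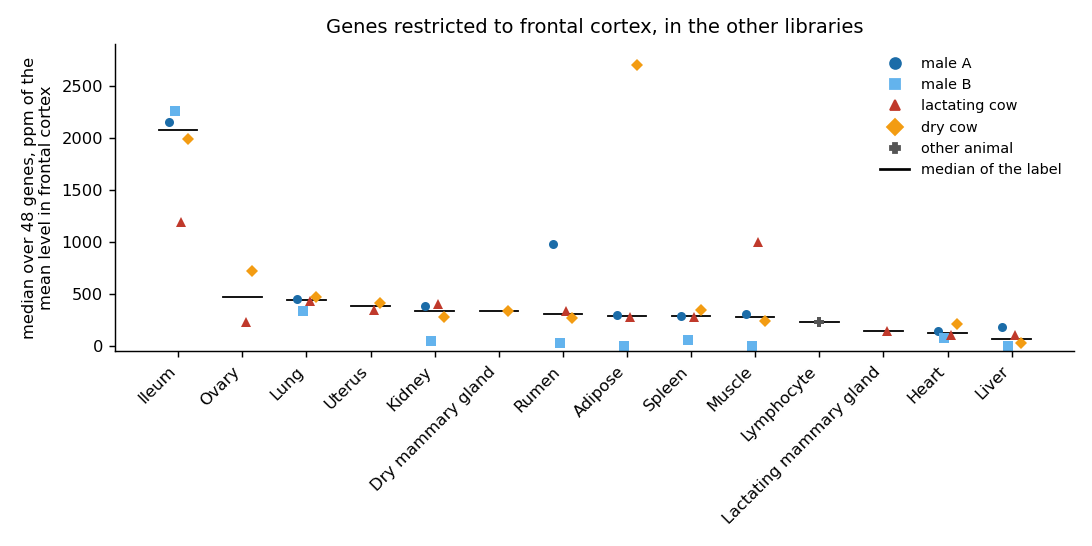
Median level of the 48 cortex-restricted genes in each of the 43 other libraries, in ppm of their mean cortex level (vertical axis, linear), by label and animal; the bar is the median of the label. All 4 ileum libraries lie between 1191 and 2257 ppm, above every other library but the dry cow's adipose tissue at 2697 ppm.

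Males and females were compared within cortex, with 2 animals of each sex, in a limma fit of 40 libraries in which 20 combinations of tissue and sex shared 1 estimate of the spread. At an adjusted p under 0.05, 34 of 16503 genes (0.206%) were higher in males and 7 (0.0424%) were lower, with median absolute differences of 0.69 and 0.66. The clearest gene was at 56.9 and 43.3 FPKM in the males, against 18.8 and 18.4 FPKM in the females. The sexes did not overlap in cortex for this gene, and its difference was 1.37 ± 0.10 (SE; limma adjusted p = 7.42e-09; higher in 2 of 2 males). The leading gene in the other direction was at 2.55 and 1.01 FPKM in the males, against 4.22 and 5.24 FPKM in the females (−1.10 ± 0.14, SE). Of the 34 genes, 19 were also called higher in cortex than in other tissues, from the same cortex libraries, or 55.9% against 11.5% of the 16503 genes. For genes low in other tissues, the shared spread rests mostly on low values, which vary little on this scale. Their SE can then be too small for cortex, so this overlap is not independent of the fit and was not tested. None of the 41 genes separated males from females in all 40 libraries.

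The sex counts were not stable. Leaving out 1 cortex library gave 30 to 95 genes higher in males and 17 to 28 lower, and without male A 15 of the 34 genes were called again. With only the 4 cortex libraries in the fit, limma called 0 of 13143 genes tested. At an unadjusted p under 0.05, 579 of these were higher and 543 lower in males, a threshold that passes many genes by chance alone. Sex and other differences between these animals cannot be told apart, and the 4 libraries differ in their content of other tissues' genes as given above.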

How the data were processed

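Library preparation used Trizol extraction, DNase treatment and an Illumina TruSeq kit, and reads were paired and 150 bases long, per the labels' protocols. Trimmomatic 0.39, STAR, Cufflinks and the assembly UMD3.1 appear in the submitters' processing notes; settings, annotation and batches are not given there or in the labels. The authors deposited 1 FPKM table of 24616 identifiers, normalized for transcript length and library size; 4 of its 51 columns matched no sample and were not used. It holds no read counts, so no counting intervals were computed. Values were analysed as log2(FPKM + 1) with limma 3.58.1 in R 4.3.3 (intensity trend, Benjamini-Hochberg adjustment over all genes tested). A gene entered a fit if 2 or more libraries had it at 1 FPKM or more, and the fit was tested on simulated data. Plots were drawn with matplotlib 3.10.9 in Python 3.11.15, and tables were handled with pandas 2.3.3 and numpy 2.4.6.

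Labels with 1 library were assumed to vary like the others. Genes were described by rank: the 15 most abundant, the 20 and 15 largest differences without overlap, the 10 widest spreads and the 5 smallest adjusted p values between the sexes. Lists by gene symbol could not be applied. Frontal cortex and the lists were chosen as subjects with earlier results of these data known, and its libraries were then taken by their label. The same animal numbers in the titles pair libraries across tissues. Deviations of a cortex library from its tissue mean were correlated across genes with those of 9 other tissues of each animal. The median correlation within male A, male B, the lactating cow and the dry cow was 0.134, 0.168, 0.196 and 0.133. With the tissues of other animals it was −0.156 to 0.0593.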

Additional observations from a re-analysis of the deposited data

Results flagged for a closer look

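Among 48 measures of the 4 cortex libraries, 3 had 1 library whose gap to the nearest other exceeded 0.829 of the range, the critical value for 4 samples; chance alone flags about 1 in 20 such groups. The gene of abundance rank 2 was at 6550.48 FPKM in the dry cow, against 6090 to 6164 FPKM in the other 3 animals, a small difference in a very even gene. The gene of rank 10 by spread was at 36.6949 FPKM in male A, against 5.26 to 6.05 FPKM in the other 3. The number of lower genes at 0 was 16 in the dry cow's cortex, against 50 to 51 in the other 3. That library also had the fewest genes at 0 over all genes tested, 1065 against 1279 to 1393.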

How the results depend on the processing

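The 1904 higher genes ranged between 1508 and 2721 over 13 alternatives. The 512 lower genes became 1240 with a pseudocount of 0.1 FPKM and 882 under quantile normalization, and lay between 418 and 635 under the other 11. Quantile normalization moved the median gene by −0.34 and kept 1498 higher and 510 lower calls; rescaling to the same sum moved it by 0.24 and kept 1904 and 418. With the animal as a replicate block and no lymphocyte library there were 1874 higher and 578 lower genes, and the block changed no call of the 4 named identifiers. Those 4 kept their direction and call under all 13. Lower genes without overlap numbered 129 without the lymphocyte library and 211 without lymphocytes and muscle, 2 alternatives chosen after seeing the data. Leaving out 1 cortex library gave 1882 to 1931 higher and 501 to 535 lower genes, and moved the share of the 10 most abundant genes, 8.14%, to between 7.49% and 8.47%. The 650 genes with a 2-fold range became 1237 with a pseudocount of 0.1 FPKM and 401 to 476 when 1 of the 4 libraries was left out, since fewer libraries narrow a range.

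Between the sexes, genes higher in males numbered 2 with a pseudocount of 0.1 FPKM and 103 without the filter on low values, where lower genes numbered 70. Rescaling to the same sum gave 11 lower genes. With the 4 cortex libraries alone limma called 0 in each direction, beside 579 and 543 of 13143 genes tested at an unadjusted p under 0.05. Leaving out 1 library gave 30 to 95 higher and 17 to 28 lower genes: 30 and 17 without male A, 84 and 22 without male B, 43 and 21 without the lactating cow, and 95 and 28 without the dry cow. The cause was not tested. With the animal as a random replicate block, an alternative chosen after seeing the data (estimated correlation 0.0384), 34 genes were higher in males, 33 of them shared, and 7 lower. Unknown depth limits what can be said of values near 0.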
